A study of Homo sapiens with 2 samples.

Results

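Chemerin is a secreted protein that draws immune cells to inflamed tissue and also acts as an adipokine. It is made as the inactive precursor prochemerin, the product of RARRES2, and extracellular proteases trim its C-terminus to give the active form. CMKLR1 is its classical G protein-coupled receptor, CMKLR2 (formerly GPR1) is a second signalling receptor that recruits arrestin, and CCRL2 binds chemerin and presents it to neighbouring cells without known signalling of its own. These 4 genes, among 18417 named genes on the array, were taken by their symbols, which 5 probe sets carried as their single gene symbol. CCRL2 had 2 of these probe sets and the other genes 1 each, and no probe set with several symbols listed any of them.

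The genes were chosen by the intensity of CMKLR2 in these same arrays, whose difference was known beforehand, and by their tie to chemerin, so their values are a description of the arrays. Levels were measured in U251, an established human glioblastoma line grown in high-glucose DMEM, after 6 h with DMSO, the solvent control, or with 5 µM G-TPP. G-TPP is a Gamitrinib, in which an Hsp90 inhibitor is coupled to triphenylphosphonium so that it accumulates in mitochondria, and the study asked which genes respond when Hsp90 chaperones there are targeted. There was 1 array per condition, so a difference has no replicate check, carries no standard error and no p-value, and cannot be told apart from a difference between cultures or hybridisations. "Higher" and "lower" below compare these 2 arrays.

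CMKLR2 was far higher with G-TPP, while the other receptors and the ligand lay at nearly the same intensity in both arrays. The CMKLR2 probe set (8058450, gene ID 2825) had a deposited intensity, on a linear scale, of 98.8 with DMSO and of 1556 with G-TPP. The DMSO value lay inside the range of a floor and the G-TPP value far over it. The floor was taken from 341 genes of olfactory receptors, a family with little expression in most tissues, as the 95th percentile of their intensities, 172.6 with DMSO and 173.6 with G-TPP. With DMSO 91 of the 341 olfactory receptors were brighter than CMKLR2, and with G-TPP 0 were. The log2 difference (G-TPP minus DMSO) was 3.98 on the deposited values. Set against the floor, which is the safer reading for a signal that dim, CMKLR2 was at least 9.01-fold higher. In a bulk sample, more cells with the transcript and more of it per cell cannot be told apart.

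CMKLR1 (probe set 7966089) read 80.6 with DMSO and 79.8 with G-TPP. Both values lay under the floor, and the log2 difference was -0.01. For CMKLR1, the receptor through which chemerin attracts macrophages, dendritic cells and natural killer cells, no signal above that of silent genes was therefore seen in either array, and no fold is given. CCRL2 read 54.3 with DMSO and 56.8 with G-TPP by probe set 8079407. Its other probe set, 8093304, read 54.9 and 56.2. The CCRL2 probe sets gave log2 differences of 0.06 and 0.03 and were under the floor in both arrays, where 222 and 200 of the olfactory receptors were brighter than the first of them. A low level of either transcript under the floor could not be seen by these arrays.

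RARRES2, the chemerin gene itself, was the only one of the 4 over the floor in both arrays. Its probe set (8143772) read 290.2 with DMSO and 277.8 with G-TPP, where 2 and 0 of the 341 olfactory receptors were brighter. The log2 difference was -0.06, which equals the median of -0.06 over all 18417 genes and is small beside the standard deviation of 0.19 across the olfactory receptors. The ligand's signal was thus over the floor, by less than 2-fold, and 19.5% of all genes had a smaller absolute difference between the arrays. Some markers of other cell types were brighter, such as the hepatocyte gene APOA1 (321.1 and 311.9) and the endothelial gene CLDN5 (371.8 and 327.9). Most markers of these cell types were under the floor. Whether a signal at this level comes from the transcript was not tested.

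**Figure D1:**
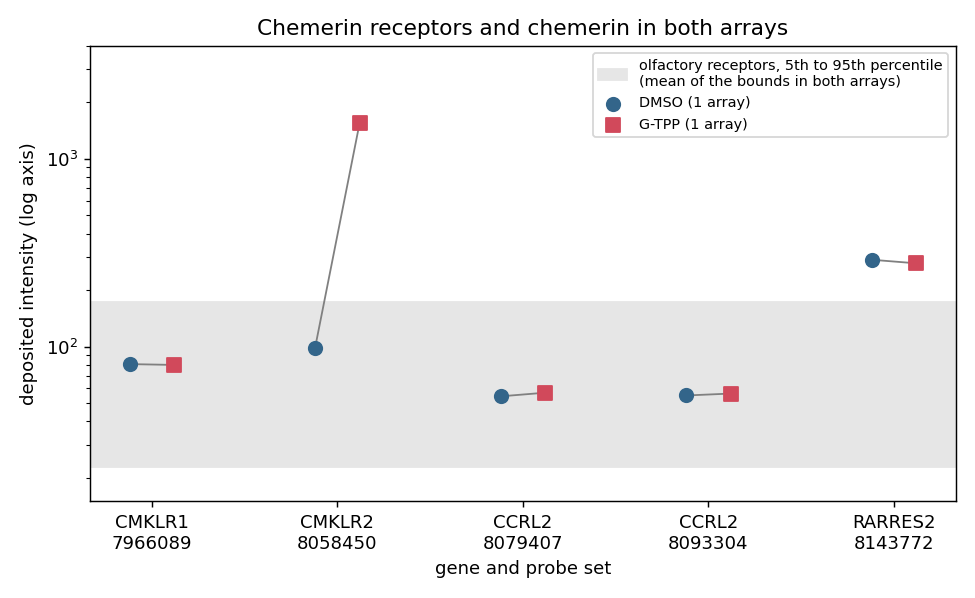
Deposited intensity (log axis) of each probe set of CMKLR1, CMKLR2, CCRL2 and RARRES2 in the DMSO array (circles) and the G-TPP array (squares), 1 array each. The grey band spans the 5th to 95th percentile of the olfactory receptors; CMKLR2 went from 98.8, inside the band, to 1556, CMKLR1 and both CCRL2 probe sets stayed inside it, and RARRES2 lay over it at 290.2 and 277.8.

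CMKLR2 and RARRES2 passed a brightness filter, an intensity of 239.2 in the brighter of both arrays, which the median probe set reaches, and CMKLR1 and CCRL2 did not. CMKLR2 passed through its G-TPP value alone. Of the 11091 genes that passed, 310 (2.8%) had a 2-fold higher value or more with G-TPP, 61 (0.55%) a 2-fold lower value or less, and 371 (3.35%) one or the other. Nothing is read from 1 chemerin gene at 2-fold against that share, since this contrast entered the choice of the genes. Genes that went from under the floor to well over it were counted over a different set, so their share is not comparable with those above. Of 5691 genes under the floor with DMSO, 53 (0.931%) were at least 2-fold higher and at or over the floor with G-TPP, and 26 (0.457%) were at least 2-fold over the floor by the bound. By the bound CMKLR2 was the first of these 53. This rank and the one over all genes that follows describe the arrays only, since the difference of CMKLR2 entered the choice. Over all genes, with intensities under the floor set to it, 6 had a higher fold than CMKLR2: the Hsp70 gene HSPA6, CTH, DNAJB9, HMOX1, SLFN5 and PPP1R15A, each of which was over the floor in both arrays.

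**Figure D2:**
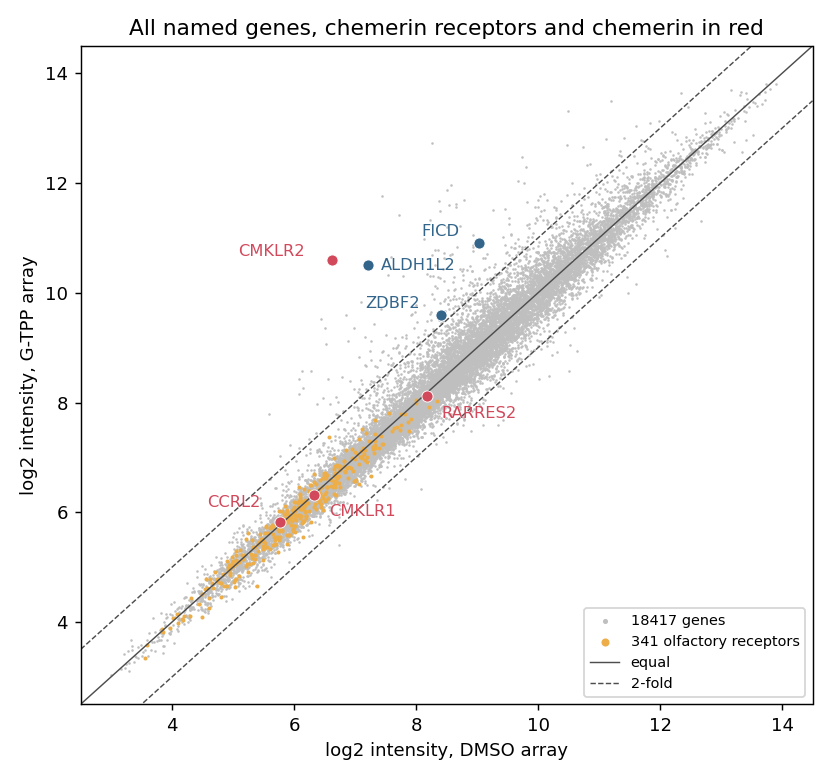
Log2 intensity with DMSO (x axis) against log2 intensity with G-TPP (y axis), 1 array each, for 18417 named genes in grey and 341 olfactory receptors in yellow, with lines for equality and for 2-fold. CMKLR2 lies far above the upper 2-fold line from a DMSO value of 6.63, FICD, ZDBF2 and ALDH1L2 also lie above it, and CMKLR1, CCRL2 and RARRES2 lie on the line of equality.

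The genes whose pair of log2 intensities lay nearest to that of CMKLR2 came from the same corner of the plot. Nearness is the Euclidean distance over 2 arrays only, so it compares a level and a difference and nothing more. ALDH1L2, a mitochondrial folate enzyme, was nearest at a distance of 0.60, with intensities of 148.8 with DMSO and 1459 with G-TPP. INHBE, the inhibin beta E subunit, followed at 0.90 (136.4 and 909.5). The pseudogene NMRAL2P lay at 0.96 (186.5 and 1290), and GDF15, a secreted stress cytokine of the TGF-beta family, at 0.96 (192.5 and 1611). PDCD4, an inhibitor of translation initiation, lay at 1.03 (115.1 and 776.2). Even the nearest was thus 0.60 log2 units away, whereas RARRES2, in the dense part of the distribution, had SLC2A11, GCGR and NUDT11 at distances of 0.0100, 0.0114 and 0.0139.

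On chromosome 2 CMKLR2 lies beside ZDBF2, and the pair is known as an imprinted region in which ZDBF2 is expressed from the paternal allele. ZDBF2, a zinc finger gene, was the next named gene with a probe set after CMKLR2, and it was also higher with G-TPP. It read 340.6 with DMSO and 774.5 with G-TPP, both over the floor, which is 2.27-fold higher. On the other side no gene reached 2-fold. The small nucleolar RNAs SNORA41 (59.3 and 47.1) and SNORD51 (107.6 and 73.0), which lie in introns of the elongation factor gene EEF1B2, were under the floor in both arrays. EEF1B2 itself had a log2 difference of -0.08 and the complex I gene NDUFS1 one of -0.13. INO80D, a subunit of a chromatin remodeller, had one of 0.66. Beyond ZDBF2, ADAM23 (123.1 and 109.2) and MDH1B (43.5 and 50.1) were under the floor in both arrays. CMKLR2-AS, an antisense RNA that overlaps CMKLR2 in the RefSeq gene table, had no probe set named for it, and whether its RNA adds to the CMKLR2 signal was not tested.

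The neighbours of CMKLR1 held the other large difference. FICD, which encodes the ER enzyme that attaches AMP to the chaperone BiP, is the next named gene with a probe set after CMKLR1 on chromosome 12, and read 524.0 with DMSO and 1925 with G-TPP. FICD was 3.67-fold higher beside a CMKLR1 signal that stayed under the floor. Its next neighbours SART3 and ISCU had log2 differences of 0.35 and 0.08, and WSCD2 on the other side -0.10. CCRL2 lies in the chemokine receptor cluster of chromosome 3, and none of its 10 nearest genes reached 2-fold. Of these 10, FYCO1 alone passed the brightness filter. CCR1 (85.9 and 97.2), CCR2 (84.2 and 86.8) and CXCR6 (99.4 and 81.6) were under the floor in both arrays. XCR1 (190.0 and 170.5) was under it with G-TPP. Their log2 differences, from -0.29 to 0.18, thus compare readings at or near the floor. None of the 10 around RARRES2 on chromosome 7 reached 2-fold either, with REPIN1 at -0.60 and ATP6V0E2-AS1 at -0.74. Over the 40 neighbours of the 4 genes, 18 passed the brightness filter, of which 2 (FICD and ZDBF2) had a value at least 2-fold higher and 0 a value at least 2-fold lower, beside 2.8% and 0.55% of all genes that passed. Their median log2 difference was -0.10, against -0.04 over all genes that passed.

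**Figure D3:**
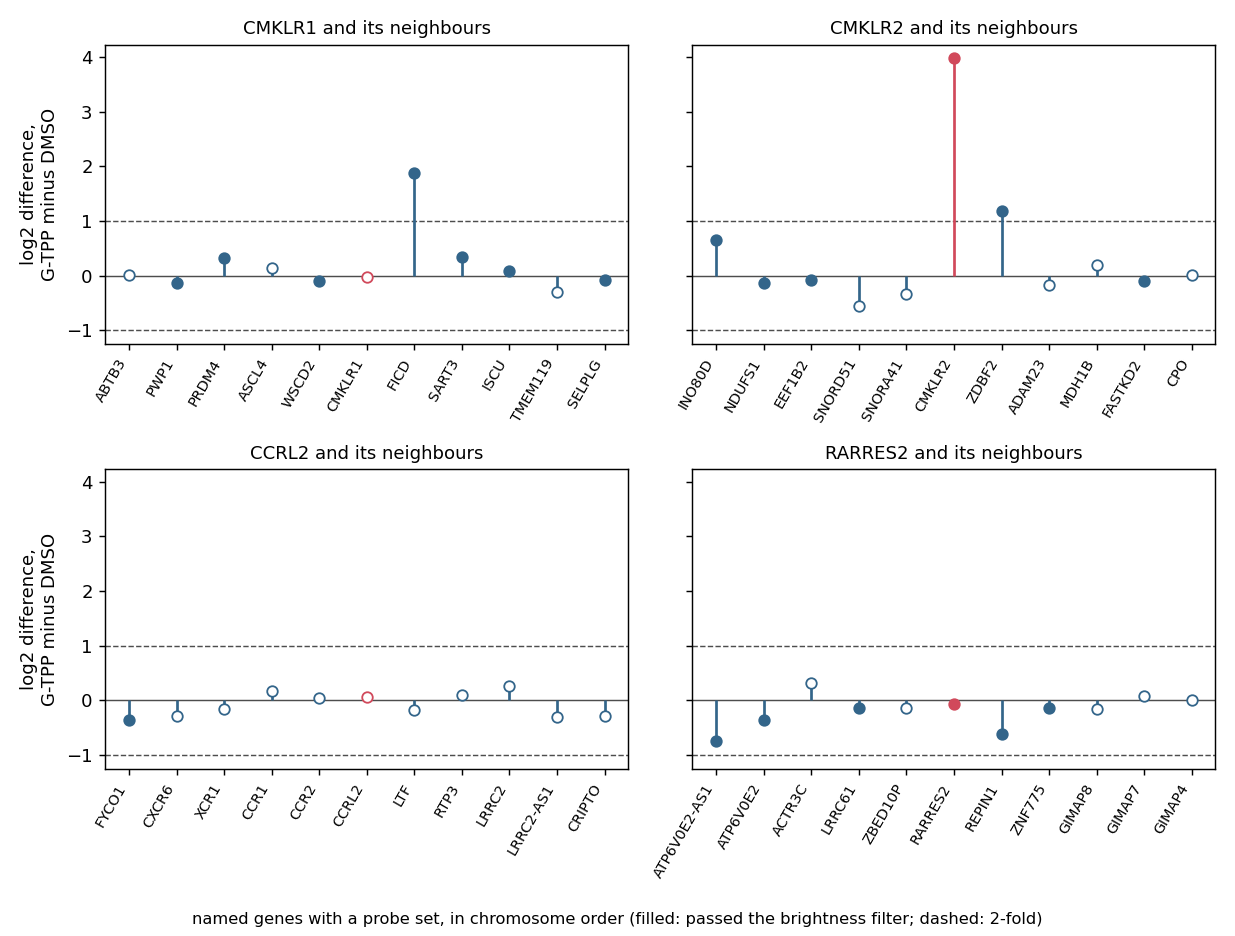
Log2 difference, G-TPP minus DMSO, for CMKLR1, CMKLR2, CCRL2 and RARRES2 (red) and the 5 nearest named genes with a probe set on each side (blue), in chromosome order; filled points passed the brightness filter and dashed lines mark 2-fold. ZDBF2 (1.19) beside CMKLR2 and FICD (1.88) beside CMKLR1 are the neighbours above the 2-fold line.

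The sequence before a start site of CMKLR2, ZDBF2 and FICD is shown because these are the genes of the 4 neighbourhoods that differed by 2-fold or more. Each is the 250 bases before a start site of the RefSeq promoter table (GRCh38.p14), 5′ to 3′ on the gene's strand, at chr2:206213372-206213621 (minus strand) for CMKLR2, chr2:206274413-206274662 (plus strand) for ZDBF2 and chr12:108515027-108515276 (plus strand) for FICD. Capitals mark the motif matches named below.
CMKLR2: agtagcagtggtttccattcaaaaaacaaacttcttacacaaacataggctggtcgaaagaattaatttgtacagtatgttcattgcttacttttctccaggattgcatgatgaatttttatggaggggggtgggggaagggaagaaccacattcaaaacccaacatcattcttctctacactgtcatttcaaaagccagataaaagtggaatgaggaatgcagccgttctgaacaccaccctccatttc
ZDBF2: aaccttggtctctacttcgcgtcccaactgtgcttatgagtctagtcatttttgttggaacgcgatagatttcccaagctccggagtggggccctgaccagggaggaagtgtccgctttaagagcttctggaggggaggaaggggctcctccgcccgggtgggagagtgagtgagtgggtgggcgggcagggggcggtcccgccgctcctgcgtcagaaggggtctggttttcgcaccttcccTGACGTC
FICD: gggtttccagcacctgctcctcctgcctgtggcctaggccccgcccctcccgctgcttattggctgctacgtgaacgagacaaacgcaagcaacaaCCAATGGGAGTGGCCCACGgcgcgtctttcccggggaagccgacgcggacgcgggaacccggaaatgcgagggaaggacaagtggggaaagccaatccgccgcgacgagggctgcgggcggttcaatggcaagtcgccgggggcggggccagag

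The table had windows for all 4 chemerin genes, and 2 of them for CCRL2 and for ZDBF2. 7 motifs were searched on both strands of each window, from 250 bases before to 50 after the start, and in all 35116 windows of the table. They were the composite element of ATF4 and C/EBP factors (TGATGNAA, in 3.62% of windows), the cAMP response element (TGACGTCA, 1.85%), the AP-1 site (TGANTCA, 7.71%), the element bound by NRF2 (TGACNNNGC, 13.3%), the heat shock element of 3 units (TTC, GAA and TTC, each 2 bases apart, 0.49%), the ER stress element (CCAAT and CCACG, 9 bases apart, 0.077%) and the GC box (GGGCGG, 44.95%). The CMKLR2 window held none of these motifs, nor did those of CMKLR1 and CCRL2. The RARRES2 window held the GC box 2 times, from -131 and from -44, counting the base before the start as -1. The FICD window held the ER stress element from -154, and the first ZDBF2 window held the cAMP response element from -7, whose last base is the first after the start and is not printed. GC boxes in these windows are left in lower case. The CMKLR2 sequence was also the poorest in G and C of the 4 genes, at 40.4%, with 13.4% of all windows lower. CMKLR1 had 51.6%, the CCRL2 windows 54% and 52.4% and RARRES2 74.8%, where the median window had 58%. A match is a run of letters and not a measured binding site. The starts used for CMKLR2 and CMKLR1 lie inside the span of each gene in the RefSeq gene table, so their motif searches and base composition describe an inner start, and other starts were not searched.

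In 3 lists of receptors related to the chemerin receptors by ligand type, sequence or name, none that passed the brightness filter reached 2-fold in either direction, beside 3.35% of all genes that passed. With so few genes in a list, a count of 0 is close to that share. Of all 18417 genes, 5691 were under the floor with DMSO and 5997 with G-TPP. The list of chemoattractant and peptide receptors, which like CMKLR1 and CMKLR2 respond to peptides or lipids that attract cells or act on vessels, had 15 of 18 genes on the array, of which 11 were under the floor in both arrays, 3 passed the brightness filter and 0 of the 3 reached 2-fold. Those 3 were GPR25 (log2 difference -0.06), the bradykinin receptor BDKRB2 (-0.09) and the prostaglandin D2 receptor PTGDR2 (-0.14). The formyl peptide receptor genes FPR1 (110.5 and 112.7) and FPR2 (52.7 and 58.9) and the complement receptor C3AR1 (82.1 and 72.7) were under the floor in both arrays. The complement receptor C5AR1 (175.3 and 235.8) was over it in both but did not pass the filter. Its log2 difference of 0.43 was the highest of the list. The lowest was -0.80 for GPR32 (95.3 and 54.6), under the floor in both arrays. Of the chemokine receptors, to which CCRL2 belongs by sequence, 20 of 22 were on the array and 17 were under the floor in both. CXCR3 alone passed the filter, with a log2 difference of -0.26. CXCR4, the receptor of CXCL12 that many gliomas carry, read 126.6 and 78.6, both under the floor.

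Receptors with a GPR number, the series of names that CMKLR2 came from, were represented by 63 genes, and 22 passed the filter. None of the 22 reached 2-fold, against 3.35% of all genes that passed in either direction. Their median log2 difference was -0.14, with 5 above 0 and 17 below, and the range ran from -0.46 for GPR157 to 0.73 for GPR180 (919.1 and 1528). GPR139 and GPR19 lay at -0.41 and -0.37. A wider list of 315 G protein-coupled receptors, put together after the data had been seen and without olfactory and chemerin receptors, had 105 that passed the filter. Of these, 1 was at least 2-fold higher, beside 2.8% of all genes that passed. It was F2RL2, the protease-activated receptor PAR3, which read 67.8 and 344.7; set against the floor it was at least 1.996-fold higher, just under 2-fold.

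Proteases that trim prochemerin, or that activate plasminogen, lay on both sides of the floor. Of 18 listed genes 17 were on the array, with 8 under the floor in both arrays and 9 over it in both. The filter was passed by 7, beside 11091 of all 18417 genes. Of these 7, 0 reached 2-fold and the median log2 difference was -0.13, beside 3.35% and -0.04 over all genes that passed. The plasminogen activators differed in sign. PLAU (urokinase) read 337.5 with DMSO and 471.2 with G-TPP, a log2 difference of 0.48, and PLAT (tissue-type activator) 1477 and 1134, a difference of -0.38. CTSL, a cathepsin that can cleave prochemerin, had a difference of 0.30. ELANE, the neutrophil elastase, read 559.5 and 474.3 (-0.24). Whether the signals of proteases over the floor come from their transcripts was not tested. Plasminogen itself, PLG, was under the floor in both arrays (151.9 and 129.4).

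Genes through which the receptors signal mostly passed the brightness filter, which 11091 of all 18417 genes passed. Of 27 listed genes 25 had a probe set of their own, 22 passed the filter, 0 of the 22 reached 2-fold beside 3.35% of all genes that passed, and 19 lay below 0, with a median log2 difference of -0.14 against -0.04 over all genes that passed. ARRB1, the arrestin that binds active receptors, had the largest absolute difference, reading 544.9 with DMSO and 361.8 with G-TPP (-0.59). SRF, a transcription factor downstream of RhoA and its kinases, read 1729 and 1181 (-0.55), and the Gi-family subunit gene GNAZ 625.0 and 438.2 (-0.51). ROCK1, a RhoA-dependent kinase, went the other way with 1008 and 1360 (0.43). GNAI2 and RHOA differed little, at -0.07 and -0.10. ARRB2, the other arrestin of this kind, had no probe set of its own.

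RARRES2 takes its name from its response to retinoids, and the retinoid list held the gene with the lowest log2 difference among the gene lists set around chemerin. RARB, a retinoic acid receptor and itself a retinoid target, read 320.7 with DMSO and 151.1 with G-TPP. Its log2 difference was -1.09, but the G-TPP value was under the floor, and against the floor RARB was at least 1.85-fold lower. After lowess centring on brightness it did not reach 2-fold. RDH10, which makes retinal from retinol, read 698.5 and 366.7, 1.90-fold lower. RARG and RXRA had log2 differences of -0.43 and -0.33, and RXRB one of 0.13. In all 6 of 19 measured genes passed, with a median of -0.38, 5 below 0 and 1 at least 2-fold lower, beside a median of -0.04 and a share of 0.55% over all genes that passed. RARRES1, another retinoid responder, was under the floor at 70.2 and 59.4.

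Chemerin has the fold of cystatins and cathelicidin. All 17 genes of that list were on the array and 7 passed, with 0 at 2-fold and a median of -0.13, beside 3.35% and -0.04 over all genes that passed. CST3, the main secreted cystatin, read 3024 and 3001, and CSTB, a cytosolic one, 3033 and 2713. CST7 and CST4 had log2 differences of -0.20 and -0.16, and CST2 one of 0.20. CSTA did not pass; it read 82.3 and 173.4, under the floor both times, so its log2 difference of 1.07 is not given as a fold. Of the other adipokines and their receptors 13 of 16 genes were on the array and 6 passed, with 0 at 2-fold beside the same 3.35%, and a median of -0.08. The adiponectin receptor gene ADIPOR2 read 1276 and 1694 (0.41) while ADIPOR1 had a difference of -0.15, NAMPT one of 0.19, APLN one of -0.26 and SFRP5 one of -0.23.

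The cell type named in the labels was set against marker genes, beside 5691 of all 18417 genes under the floor with DMSO and 5997 with G-TPP. Of 13 astroglial and glioma markers 9 were over the floor in both arrays, and AQP4, S100B, SLC1A2 and ALDH1L1 were under it. Among the 9 were VIM (7146 and 6494), CD44 (8013 and 7614) and NES (962.8 and 678.8). The astroglial gene GFAP was also among them, but at 245.2 and 231.5 it was dimmer than the hepatocyte gene APOA1. The brightness filter was passed by 9 of the 13. Of these, SOX2 alone reached 2-fold, with 4434 and 1629, beside 3.35% of all genes that passed. SOX9 came close to 2-fold, with 921.9 and 466.7, 1.98-fold lower. Of immune markers, whose cells are known carriers of CMKLR1, 11 of 12 were measured and 7 were under the floor in both arrays, PTPRC among them at 34.8 and 32.9, while CD68 (583.7 and 515.5), NKG7 (321.0 and 290.7), TYROBP (305.7 and 220.4) and CD14 (207.4 and 193.9) were over it in both. Their summed intensity was 2071 with DMSO and 1838 with G-TPP, and none was higher with G-TPP. Adipocyte and hepatocyte markers, of the main sources of chemerin, had 4 of 6 each under the floor in both arrays, with FABP4 at 26.3 and 24.5 and ALB at 58.6 and 56.6, and summed intensities of 868.8 and 856.2 and of 911.1 and 863.8. The adipocyte genes PLIN1 (242.8 and 252.7) and CIDEC (183.0 and 176.0) and the hepatocyte gene APOA1 (321.1 and 311.9) were over the floor in both arrays. The hepatocyte gene TTR (205.3 and 171.7) was over it with DMSO only. Endothelial markers had 4 of 7 under the floor in both arrays, with PECAM1 at 74.6 and 70.7, CLDN5 (371.8 and 327.9) and CDH5 (319.5 and 304.8) over it in both, and sums of 1387 and 1290. The part of other cell types in the CMKLR2 difference was not tested.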

How the data were processed

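The values analysed are the deposited intensities, 1 for each array and probe set, which run on a linear scale and were made by the authors with RMA in Affymetrix Expression Console 1.1.2, per the submitters' processing notes. RMA makes array distributions alike, so a change in total RNA per cell is not visible. Medians were 224.8 (DMSO) and 215.5 (G-TPP), and the number of arrays, 1 per group, limits the precision.

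Of 33297 probe sets 19460 carried a single platform gene symbol, updated through the RefSeq gene table (GRCh38.p14) for 19429. For 769 genes with more than 1 probe set the one with the highest mean intensity was used. Log2 differences were taken without a pseudocount, no test was possible, and genes were counted at 2-fold. How often 2 cultures or arrays of the same condition differ by that much was not tested.

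The chemerin genes and all lists were chosen with earlier results of these data known. The naming rule took the 4 chemerin genes, listed genes and neighbours at 2-fold, up to 4 genes per list with the largest difference, the 3 nearest neighbours on each side of CMKLR2, and the genes nearest in intensity to CMKLR2 (5) and RARRES2 (3). Other genes were named after their values were seen. Alternatives were median and lowess centring (span 0.3), quantile normalization, 16 added to the intensity, other probe sets, floors, brightness filters and fold thresholds. Software was matplotlib 3.10.9, pandas 2.3.3, numpy 2.4.6 and statsmodels 0.14.6 under Python 3.11.15.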

Additional observations from a re-analysis of the deposited data

How the results depend on the processing

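The log2 difference of CMKLR2 (3.98) was 3.77 with 16 added to each intensity, and 3.45, 3.17 and 2.64 with intensities under the 90th, 95th or 99th percentile of the olfactory receptors set to that floor, the last being 6.24-fold. It stayed over 2-fold under every alternative run. The differences of CMKLR1, CCRL2 and RARRES2 moved by less than the standard deviation of 0.19 across olfactory receptors under every alternative run. The floor settings are no check on these genes. RARRES2 lay over every floor, so its value could not move. Where a gene was under a floor in both arrays, its value is the difference between the floors. It was therefore the same for CMKLR1 and CCRL2 at the 90th, 95th and 99th percentiles. The 1 retinoid gene at 2-fold became 0 after lowess centring, at 3-fold and at the 75th percentile filter, and 2 at 1.5-fold. At 1.5-fold the signalling list had 1 gene, the GPR-numbered receptors 1, the neighbours 5 in place of 2 and the wider receptor list 10 in place of 1, and at 3-fold the neighbours had 1. The wider receptor list had 0 genes at the 75th percentile filter and 2 after lowess centring or quantile normalization, and the cystatin-fold list had 1 with no brightness filter. The wider receptor list, and the alternatives run for ZDBF2 and FICD, were chosen after seeing the data. Of 130 alternative values, with those floor settings counted, 113 were within these limits (0.19 for a difference, 1.5 times for a count) and 17 were not. No difference of 2-fold or more changed sign. The small ones of CMKLR1, CCRL2 and RARRES2 lay on either side of 0, from -0.09 to 0.06, from -0.09 to 0.13 and from -0.06 to 0.04. Both values of -0.09 are differences between the floors, and CCRL2 was below 0 only at such settings. No paired analysis was possible because each group has 1 array, and for the same reason no replicate could be left out. Dim probe sets limit what can be seen: under the floor, presence and absence of CMKLR1 and CCRL2 transcripts could not be told apart.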

Other observations

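Receptor genes of other families were also among those that went from under the floor with DMSO to at least 2-fold over it with G-TPP, chosen here after their values were seen. PRLR, the prolactin receptor, read 143.0 and 584.4, at least 3.39-fold higher. TNFRSF9, the costimulatory receptor 4-1BB, read 142.6 and 413.4, at least 2.39-fold higher, and IL20RB, a subunit of receptors for the interleukin 20 family, read 160.9 and 407.9, at least 2.36-fold higher. Among G protein-coupled receptors over the floor in both arrays, GPRC5A, a retinoid-inducible orphan receptor, read 180.6 and 344.1, a log2 difference of 0.93, and the muscarinic receptor CHRM3 read 244.5 and 409.6 (0.74). The R-spondin receptor gene LGR4 read 1313 and 668.4, a log2 difference of -0.97, and the adenosine receptor ADORA1 529.4 and 335.5 (-0.66). None of these had a replicate.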
